A study of Rattus norvegicus with 10 samples.

Results

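Muscle of Sprague Dawley rats labelled TZG, the herbal extract group, was compared with muscle labelled MPS, the pain model, chosen by the number in each title and column: 6 of the 10 libraries of the series. The 3 TZG libraries carry the title word drug and the numbers 26, 27 and 43; the series title names the extract as Tianhe Zhuifeng liquid extract. The 3 MPS libraries, for myofascial pain syndrome, carry the numbers 10, 11 and 14. The 4 libraries labelled NC, which the labels do not spell out, carry 4 to 7 and are used here for their levels and in the estimate of the spread. The labels give no dose, time, age, sex or muscle, do not say how the model was made or whether the TZG rats had it, and do not state that the libraries come from separate animals, so p-values measure only the spread between these samples, which may be technical.

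Myofascial pain syndrome is a condition of taut, tender spots in skeletal muscle. A piece of muscle holds slow-twitch fibres, which live on oxidative metabolism, and fast-twitch fibres, which rely more on glycolysis, together with vessels, connective tissue, resident macrophages, fat cells and nerve branches whose axons are wrapped in myelin by Schwann cells. The RNA of a piece therefore reads both how active a gene is and how much of each fibre or cell type the piece holds, and in such bulk libraries fewer cells of a type and less RNA per cell cannot be told apart.

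Total counts lay between 12616160 and 18179144 per library. Acta1, the actin of skeletal muscle, stood at 34510 to 46640 CPM (counts scaled to a common library total) in 9 libraries and at 2320 CPM in MPS 14. The T cell gene Cd3e, the B cell gene Ms4a1 and the leukocyte gene Ptprc stood at 287.1, 262.6 and 1887 CPM in MPS 14 while elsewhere the highest values were 0.426, 0.442 and 11.1 CPM. Each comparison was therefore fitted with all 10 libraries and again with the 9 that remain without MPS 14. Levels below are normalised CPM, that is CPM of the library total scaled by TMM factors. Log2 fold changes are TZG over MPS, ± SE, from edgeR's quasi-likelihood test, with p-values adjusted over all genes tested.

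In the fit without MPS 14, 1 gene passed an adjusted p of 0.05. Scamp1, a membrane protein of recycling and secretory vesicles (ENSRNOG00000061582, chromosome 2, 23857995 to 23941084; the build of these positions is not given in the sources used here), rose in TZG muscle. Its level was 31.2, 26.5 and 21.8 normalised CPM in TZG 26, 27 and 43, against 3.06 and 3.85 in MPS 10 and 11. The 3 TZG libraries lay above both MPS libraries with no overlap, and within or just under the 24.1 to 39 of the 4 NC libraries. The log2 fold change was 2.94 ± 0.30 (edgeR adjusted p = 0.0121). That is 1 of 13719 genes higher, or 0.00729%, and 0 lower (0%). MPS 14 stood at 32.4, beside the TZG and NC libraries, and with all libraries the log2 fold change of Scamp1 was 1.005 (edgeR adjusted p = 0.798). The authors' deposited table gives Scamp1 a log2 fold change of 1.02 and a q-value of 1. The call was also lost in limma-voom (smallest adjusted p 0.0567), in the edgeR fit of TZG and MPS libraries alone (0.284) and in edgeR without MPS 10 or without MPS 11 (0.117 and 0.256), where no gene passed. It stayed in DESeq2 and, in edgeR, without TZG 26, 27 or 43.

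The Scamp1 promoter is shown because this gene carries the call; it holds the E-box CACGTG, the site of clock and MYC family factors, in capitals. The sequence runs 5′ to 3′ from 250 bases before to 50 bases after the start on the minus strand (chr2:27251518-27251817, RefSeq, GRCr8).
Scamp1: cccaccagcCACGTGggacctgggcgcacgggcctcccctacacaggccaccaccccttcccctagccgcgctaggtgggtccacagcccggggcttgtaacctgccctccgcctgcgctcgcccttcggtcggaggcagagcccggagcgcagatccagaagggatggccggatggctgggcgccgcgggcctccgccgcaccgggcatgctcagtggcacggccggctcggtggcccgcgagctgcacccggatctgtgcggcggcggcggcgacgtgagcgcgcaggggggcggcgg
An E-box on either strand stood in 6.42% of the 33469 rat promoters of this length, and the NF-Y box CCAAT in 37.5%; the Scamp1 window holds no CCAAT. A match describes these letters only.

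With all libraries, 0 of 13535 genes passed in edgeR in either direction (0%); the smallest adjusted p was 0.771, and 722 genes (5.33%) had an unadjusted p under 0.05, of which 162 were higher (1.2%) and 560 lower (4.14%). DESeq2 called 3 genes at this size and limma-voom 0. The DESeq2 calls were Akr1b7, an aldose reductase relative, and Cyp4f18, a fatty acid hydroxylase that in mice acts on leukotriene B4, both higher, and Mier3, a chromatin factor, lower. The authors' deposited table lists 19131 features with a value for this comparison, of which 0 have a q-value under 0.05. Without MPS 14, 609 of 13719 genes (4.44%) had an unadjusted p under 0.05, now 378 higher (2.76%) and 231 lower (1.68%), so the lean towards lower genes turned round with this 1 library.

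Next to Scamp1, genes with the smallest p in the 9-library fit were taken among named genes with a mean of at least 1 CPM. Their TZG libraries also had to lie apart from MPS 10 and 11 without overlap. They were, on the higher side, Medag, Dock8, Cish and Akr1b7, and on the lower side Prx, Acsm5, Wipf3, Mier3 and Chrd. None passed in edgeR, while DESeq2 without MPS 14 called all 9 of them (adjusted p from 1.4e-05 for Prx to 0.0339 for Cish). The same DESeq2 fit also called Cldn5, at a log2 fold change of 23.6. That gene was at 0 in TZG 26 and 43 and in MPS 10 and 11, so a DESeq2 call here can rest on 1 TZG library. Medag, which promotes the forming of fat cells, had 34.4, 24.9 and 58.6 normalised CPM in TZG 26, 27 and 43, against 9.17 and 12.4 in MPS 10 and 11, with 2.37 in MPS 14 and 22.3 to 32.9 in NC (log2 fold change 1.86 ± 0.36, edgeR adjusted p = 0.699). Cish, a brake on cytokine and growth hormone signalling through STAT5, had 69.8, 61.9 and 30.1 in TZG, against 15.2 and 19.9 in MPS 10 and 11 and 18.1 to 35.4 in NC. For both genes the TZG libraries lay above all 3 MPS libraries. A lack of overlap was a condition for naming these genes, so it lends them no support. Over all genes tested it held in either direction for 15.7% without MPS 14 and for 5.37% with all libraries. Chrd, a secreted antagonist of bone morphogenetic proteins, had 2.3, 3.39 and 2.03 in TZG, against 10.5 and 6.62 in MPS 10 and 11. Mier3 had 2.51, 4.31 and 3.48 in TZG, against 10.6, 8.06 and 25.4 in the 3 MPS libraries and 14.4 to 19.6 in NC, so here the TZG libraries were low against both groups. Akr1b7 was above both MPS libraries in each TZG library but spread widely, with 13, 1 and 6.68 in TZG against 0.367 and 0.301 in MPS 10 and 11.

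To see which differences hold in each TZG library, every library was set beside the range of MPS 10 and 11. A library counted as past that range where log2(normalised CPM + 1) lay at least 1 above the higher or below the lower of them, and a difference was taken to rest on 1 library where the other 2 stayed within the range widened by 0.5. Of 10268 genes with at least 5 normalised CPM in 1 of these 5 libraries, 2 were higher in all 3 TZG libraries (0.0195%) and 11 were lower in all 3 (0.107%). By contrast, 1488 genes (14.5%) had some TZG library past the range. TZG 43 alone carried 535 higher (5.21%) and 340 lower genes (3.31%). TZG 26 alone carried 26 higher (0.253%) and 42 lower (0.409%), and TZG 27 alone 8 higher (0.0779%) and 15 lower (0.146%). For scale, MPS 10 and MPS 11 themselves differed at least 2-fold in 382 of these genes (3.72%). These counts describe the libraries and carry no test.

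**Figure D1:**
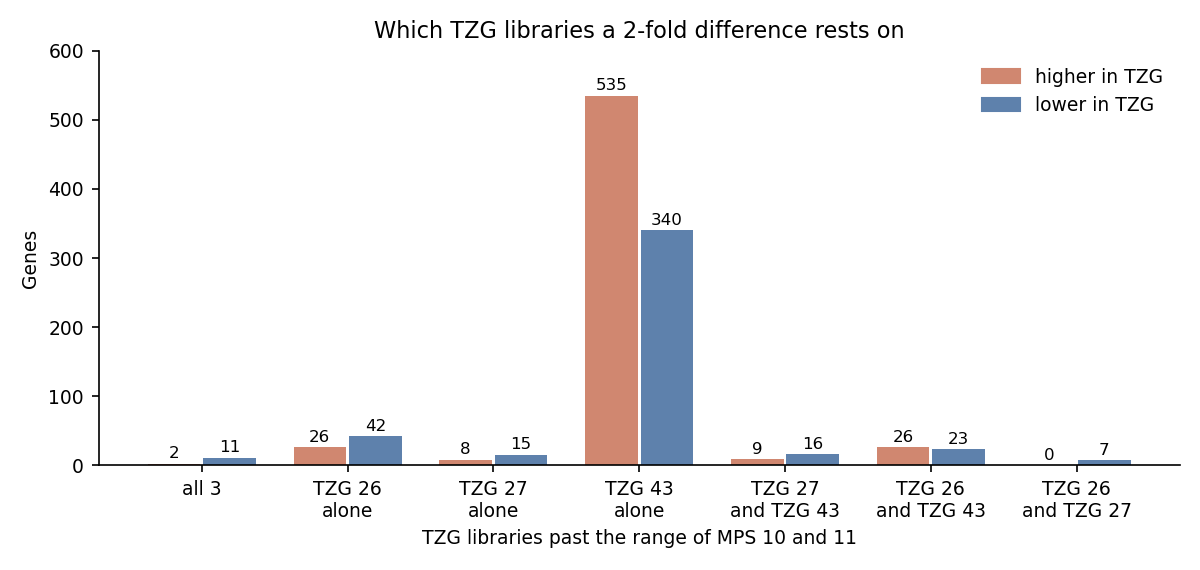
Number of genes (y axis) by the TZG libraries that lie at least 1 log2 unit past the range of MPS 10 and 11 (x axis), with genes higher and lower in TZG as separate bars. TZG 43 alone accounts for 535 higher and 340 lower genes, while 2 and 11 genes hold in all 3 TZG libraries.

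Of the 11 genes lower in all 3 TZG libraries, 9 are described here: Prx, Pmp2, Cldn19, Pllp, Hmgb3, Igfn1, Wipf3, Csn1s1 and Snurf. The first 4 of these names are genes of myelinating Schwann cells or myelin membranes. Prx encodes periaxin, which anchors the Schwann cell cytoskeleton around peripheral axons (ENSRNOG00000018369, chromosome 1, 84304228 to 84324560). It had 5.96, 9.24 and 8.03 normalised CPM in TZG 26, 27 and 43, against 41.3 and 29.4 in MPS 10 and 11, with 1.78 in MPS 14 and 4.77 to 9.43 in NC. All 3 TZG libraries lay under both MPS libraries and within or close to the NC range; the log2 fold change was -2.19 ± 0.33 (edgeR adjusted p = 0.248 without MPS 14), and it was -1.65 with all libraries. Per transcript length the same held: in the deposited FPKM values Prx stood at 1.14, 1.95 and 1.27 in TZG against 8.84 and 5.8 in MPS 10 and 11. Pmp2, the myelin fatty acid binding protein, had 0, 0.462 and 1.45 normalised CPM in TZG against 5.81 and 4.93 in MPS 10 and 11, and Cldn19, a tight junction protein of Schwann cells and kidney, 0.215, 0.385 and 0.29 against 5.02 and 2.83.

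**Figure D2:**
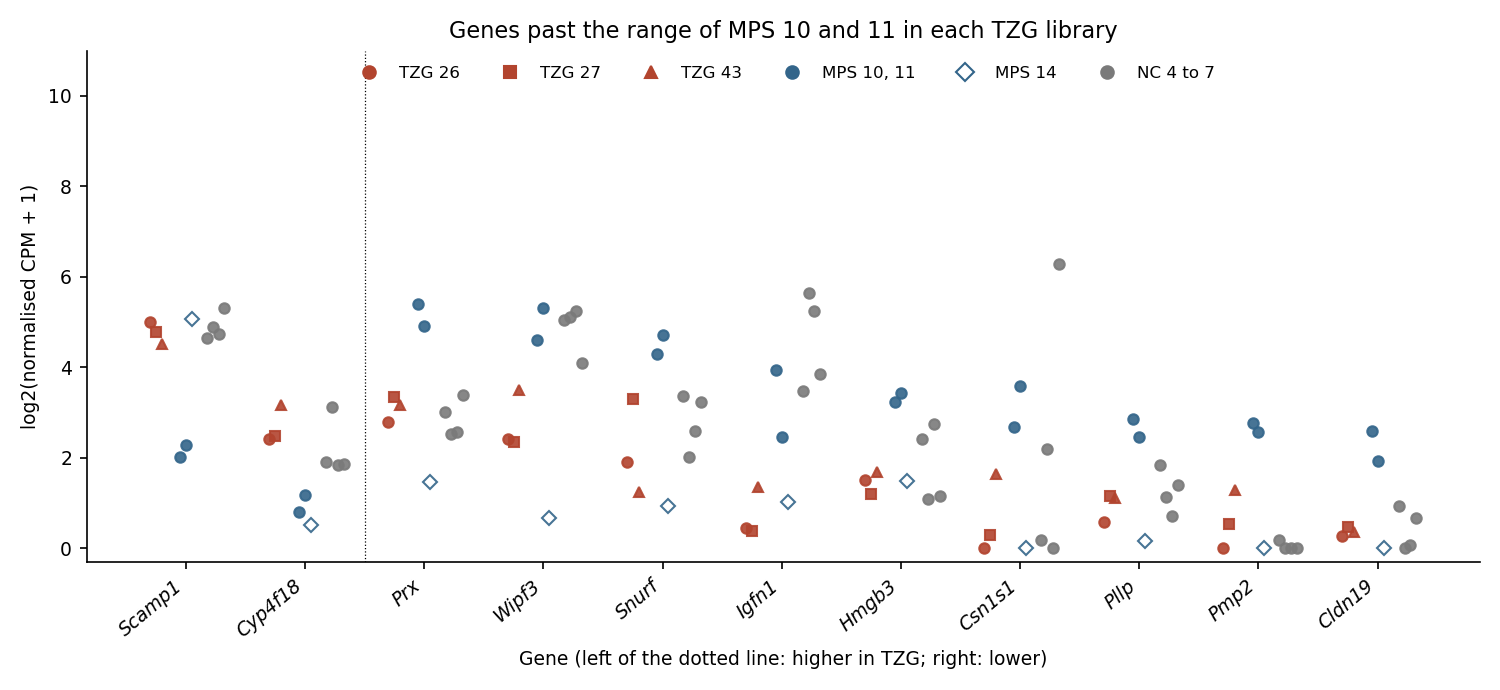
log2(normalised CPM + 1) in every library (y axis) for 11 of the 13 genes past the range of MPS 10 and 11 in all 3 TZG libraries (x axis); red symbols are TZG, blue MPS with MPS 14 open, grey NC. Scamp1 and Cyp4f18 stand higher in TZG, and the other 9 lower; of the genes drawn, MPS 14 lies on the side of TZG for all but Cyp4f18.

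The list of Schwann cell and nerve genes had 15 of 16 measured members lower in the fit without MPS 14, beside 47.5% of all genes. Its median log2 fold change was -2.17, beside 0.02 over all genes tested. In edgeR 0 passed the adjusted threshold and 7, all lower, had an unadjusted p under 0.05, beside 1.68% of all genes. DESeq2 without MPS 14 called Prx. With all libraries 14 of 15 were lower, beside 53.8% of all genes, with a median of -1.6. Beyond Prx, the members with the smallest unadjusted p were Cldn19, Pmp22 and Pmp2. Pmp22, a myelin membrane protein that other cells make as well, had 33.3, 38.7 and 87.6 normalised CPM in TZG against 141 and 140.0 in MPS 10 and 11. Mbp, myelin basic protein, had 2.87 and 3.08 in TZG 26 and 27 but 42.8 in TZG 43, against 97.2 and 45.5 in MPS 10 and 11. Mal and Sema3b showed the same split, past the MPS range in TZG 26 and 27 and not in TZG 43, a pattern of 7 genes on the lower side (0.0682%) and 0 on the higher. S100b, made by Schwann and fat cells, went the other way in TZG 43, with 2.94, 11.5 and 86.7 in TZG against 19.3 and 23.8 in MPS 10 and 11. The summed level of the list was 86.1, 116 and 402 normalised CPM in TZG, 851 and 608 in MPS 10 and 11, 155 in MPS 14 and 81.1 to 253 in NC, so MPS 10 and 11 stood above every other library. How much nerve each muscle piece held was not recorded in the labels, and its part in these differences was not tested.

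The Prx promoter is shown as that of the myelin gene with the smallest p; capitals mark its CCAAT box (chr1:91914171-91914470, plus strand, RefSeq, GRCr8).
Prx: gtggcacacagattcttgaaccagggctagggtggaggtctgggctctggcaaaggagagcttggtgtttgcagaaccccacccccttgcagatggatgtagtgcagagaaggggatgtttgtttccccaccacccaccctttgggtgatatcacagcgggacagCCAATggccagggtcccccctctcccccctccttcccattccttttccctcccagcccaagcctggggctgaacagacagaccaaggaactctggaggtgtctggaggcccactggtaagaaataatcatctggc
Of the 12 list members with a promoter in the table, 5 held CCAAT (41.7%, against 37.5% of all promoters) and 3 held the SOX core ACAAAG on either strand (25%, against 18.8%); Prx holds no ACAAAG in this window.

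Among the other genes lower in all 3 libraries, Wipf3, an actin regulator, had 4.31, 4.08 and 10.3 normalised CPM in TZG against 23.2 and 38.5 in MPS 10 and 11 and 16.2 to 36.9 in NC. Igfn1, a Z-disc protein of skeletal muscle, had 0.359, 0.308 and 1.55 in TZG against 14.4 and 4.51 in MPS 10 and 11 and 10.2 to 48.9 in NC. These 2 genes differ from the myelin genes in that NC lay with MPS 10 and 11 and not with TZG. Hmgb3, a chromatin protein, had 1.87, 1.31 and 2.23 in TZG against 8.38 and 9.87 in MPS 10 and 11. On the higher side, Cyp4f18 had 4.31, 4.62 and 7.93 in TZG against 0.734, 1.26 and 0.435 in the 3 MPS libraries and 2.59 to 7.68 in NC. Just inside the rule lay Csn1s1 and Snurf, at 1.04 and 1.005 log2 units below the MPS range in the nearest TZG library, and just outside Sln on the lower side (0.95) and Medag on the higher (0.95). Sln, sarcolipin, an inhibitor of the calcium pump of the sarcoplasmic reticulum, had 3.88, 2.62 and 5.71 in TZG against 26.1 and 12 in MPS 10 and 11.

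Slow-twitch fibre genes rested on TZG 26 and TZG 43, while TZG 27 stood with MPS 10 and 11. Of the 11 markers, 8 were past the MPS range on the lower side in TZG 26 and 43 and not in TZG 27; the background for this pattern was 23 of 10268 genes (0.224%). Myh7, the slow myosin heavy chain, had 0.215, 1344 and 36.6 normalised CPM in TZG 26, 27 and 43, against 608 and 1184 in MPS 10 and 11, with 22.1 in MPS 14 and no more than 2.69 in NC. Tnnt1, slow troponin T, had 0.718, 481 and 6.1 in TZG against 250 and 469 in MPS 10 and 11. TZG 27 thus lay above both MPS libraries for both genes, and the other 2 TZG libraries far below them. The list median was -0.96 with 11 of 11 members lower, beside 47.5% of all genes. Of them 0 had an unadjusted p under 0.05, beside 4.44% of all genes. Its summed level was 187, 4080 and 247 normalised CPM in TZG, against 1764 and 3779 in MPS 10 and 11, 503 in MPS 14 and 154 to 193 in NC. Myoz2, a Z-disc protein of slow fibres, passed only when TZG 27 was left out (log2 fold change -5.97 ± 0.71, edgeR adjusted p = 0.0414), and without MPS 11 its log2 fold change was 0.22. Mb, myoglobin, had 336, 4306 and 278 in TZG, against 5306 and 5313 in MPS 10 and 11. Ldhb, the lactate dehydrogenase form of oxidative tissue, and Csrp3, a stretch-responsive protein of the Z-disc, followed the same split, with Csrp3 at 4.96, 83.6 and 22.4 in TZG against 46.8 and 196 in MPS 10 and 11. The 12 fast-twitch fibre genes measured, of 15 listed, showed no such split. Their median was 0.06, and Myh4, the fastest myosin, had 20620, 21110 and 20180 in TZG against 21620 and 23250 in MPS 10 and 11. The fast-fibre genes Myh1, Myh2 and Atp2a1 were not matched to a gene name, so nothing can be said of them. Which muscle, and which part of it, each library came from is not in the labels, and the part of fibre makeup in other differences was not tested.

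**Figure D3:**
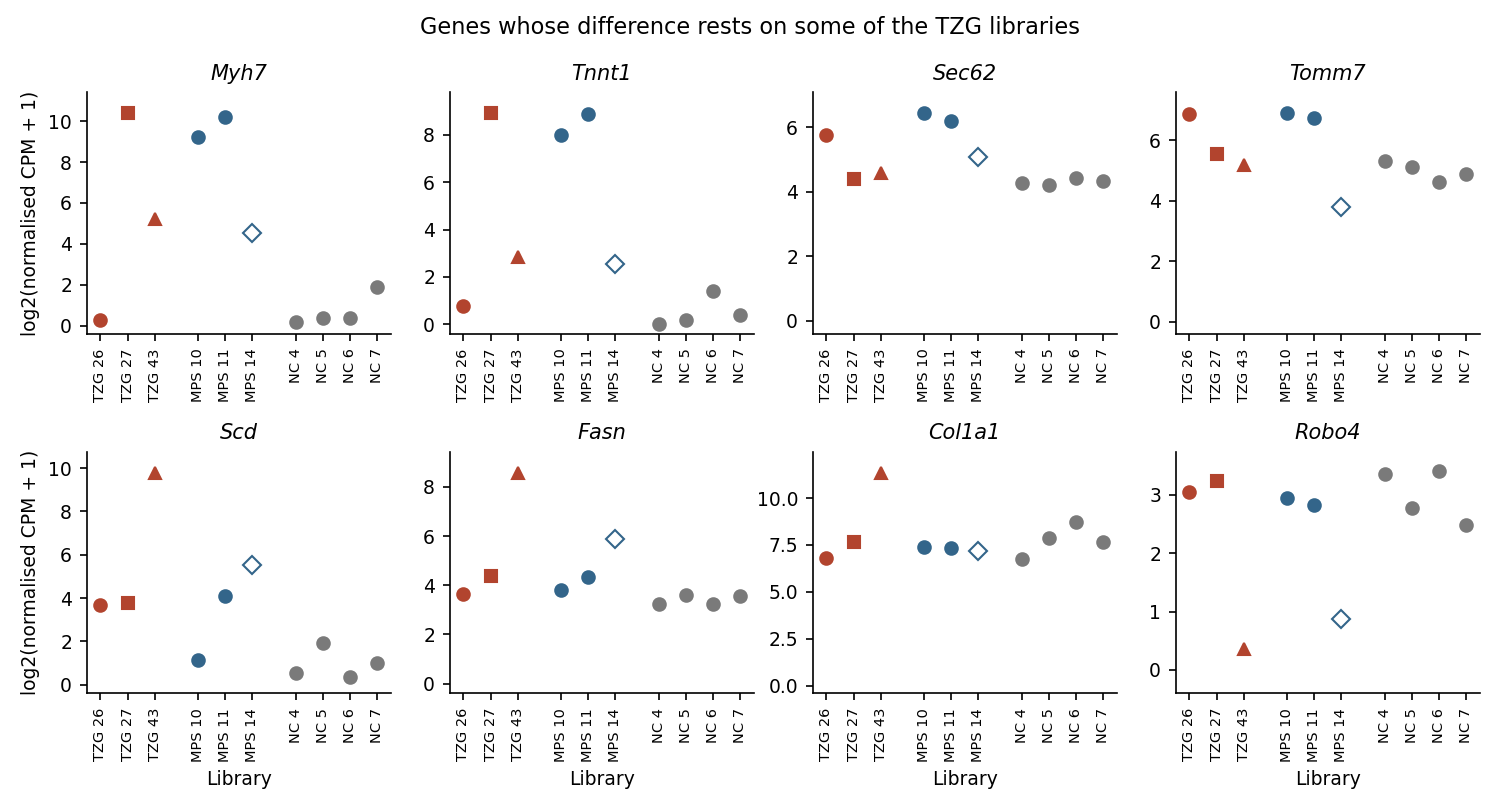
log2(normalised CPM + 1) of 8 genes (y axis) in each library (x axis), red TZG, blue MPS with MPS 14 open, grey NC. Myh7 and Tnnt1 are low in TZG 26 and 43, Sec62 and Tomm7 low in TZG 27 and 43, Scd, Fasn and Col1a1 high in TZG 43, and Robo4 low in TZG 43.

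TZG 27 alone carried few differences. Its higher genes included Nov, a matrix-associated signalling protein, with 12.3, 64.9 and 14.8 normalised CPM in TZG 26, 27 and 43 against 10.4 and 17.9 in MPS 10 and 11, and G0s2, an inhibitor of fat breakdown, with 36.8, 147 and 54.6 against 25.7 and 64.5. Cldn5, the tight junction protein of endothelium, was present in all or none: 0, 32.6 and 0 in TZG, 0 and 0 in MPS 10 and 11, 18.1 in MPS 14, and 63, 76.9, 0 and 0 in NC 4 to 7, so it split libraries within each group. Lower in TZG 27 alone were Grtp1, with 40.2, 2.39 and 35 in TZG against 31 and 33.5 in MPS 10 and 11, and Rpa1, a single-strand DNA binding protein of replication, with 28, 6.01 and 29.7 against 23.7 and 31.7. Tendon genes were high in TZG 27 as well, though not by the same rule, and low in TZG 26 and 43. In TZG 27, 4 of 6 members assessed were past the MPS range on the higher side, beside 0.36% of all genes. On the lower side 0 were in TZG 27, 3 in TZG 26 and 4 in TZG 43, beside 0.76%, 1.42% and 4.96%. The list differed from MPS 10 and 11 by -1.41, 1.45 and -1.62 log2 units in TZG 26, 27 and 43. Thbs4, a matrix protein of tendon, had 0.287, 151 and 2.13 in TZG against 63 and 33.7 in MPS 10 and 11. Summed, the tendon list stood at 18, 276 and 12.4 normalised CPM in TZG, against 113 and 87.9 in MPS 10 and 11 and 17.6 to 25.8 in NC; Mkx, a tendon transcription factor, was at 0 in all 3 TZG libraries.

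TZG 43 alone carried the bulk of the differences, and lipid synthesis genes were among the steepest. Of 14 list members assessed, 8 were higher in TZG 43 alone, beside 5.21% of all genes. Scd, the desaturase that makes monounsaturated fatty acids, had 11.9, 12.6 and 879 normalised CPM in TZG 26, 27 and 43, against 1.22 and 15.9 in MPS 10 and 11, with 45.5 in MPS 14 and 0.288 to 2.76 in NC. Fasn, fatty acid synthase, had 11.5, 19.8 and 382 in TZG against 13 and 18.9 in MPS 10 and 11. Thrsp, a nuclear protein that promotes lipogenesis, had 3.88, 7.16 and 293 in TZG against 3.91 and 12.9. In each case TZG 26 and 27 lay inside or close to the MPS range and TZG 43 stood far above it. Without TZG 43 the fitted log2 fold changes of Fasn, Thrsp and Acly were -0.05, -0.63 and -0.17, against positive values with it. Acly, Acaca, Agpat2, Elovl5 and Pck1 completed the 8. Acacb, the acetyl-CoA carboxylase of muscle mitochondria, and Dgat1 did not share the pattern: Dgat1 had 24.1, 23.7 and 22.8 in TZG against 23.7 and 23.1 in MPS 10 and 11, and Acacb was lower in all 3 TZG libraries, at 93.1, 80.7 and 38.2 against 163 and 118. Fat cell genes were partly high there too, as 7 of 13 assessed were past the MPS range on the higher side in TZG 43 and 1 on the lower, beside 7.8% and 4.96% of all genes; Adipoq, adiponectin, had 9.84, 28.6 and 101 in TZG against 19.6 and 20.7. The summed fat cell list, in which the widely made Fabp4 and Lpl weigh most, was 998, 1021 and 1265 in TZG against 1861 and 1050.0 in MPS 10 and 11. The part of fat tissue in the piece was not tested.

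The Thrsp promoter is shown as an example of a lipogenic gene; capitals mark ATTGG, the CCAAT box on the opposite strand (chr1:161138915-161139214, minus strand, RefSeq, GRCr8).
Thrsp: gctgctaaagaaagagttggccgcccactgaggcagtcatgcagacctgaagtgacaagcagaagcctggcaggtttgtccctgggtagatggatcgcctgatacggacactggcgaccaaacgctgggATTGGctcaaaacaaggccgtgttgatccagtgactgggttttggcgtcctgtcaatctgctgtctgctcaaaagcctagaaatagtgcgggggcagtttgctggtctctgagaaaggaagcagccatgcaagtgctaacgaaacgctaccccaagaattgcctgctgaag
CCAAT on either strand stood in 6 of the 10 list promoters in the table (60%, against 37.5% of all promoters) and CACGTG in 1 (10%, against 6.42%); Thrsp holds no CACGTG here.

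Matrix genes were high in the same library. Col1a1, a chain of type I collagen, had 111, 202 and 2589 normalised CPM in TZG 26, 27 and 43 against 169.9 and 161 in MPS 10 and 11, and Col3a1, type III collagen, 434, 362 and 1882 against 363 and 322. Of 26 measured collagen and matrix genes, 10 were higher in TZG 43 alone, beside 5.21% of all genes. In TZG 43, 14 of them were past the MPS range on the higher side and 2 on the lower, beside 7.8% and 4.96% of all genes. Of the fibroblast markers, 13 of 14 were higher, beside 52.5% of all genes, with a median log2 fold change of 0.84; 5 had an unadjusted p under 0.05, beside 2.76% of all genes. In TZG 26, 27 and 43 the list stood 0.39, 0.37 and 1.31 log2 units above MPS 10 and 11. Gsn, gelsolin, an actin-severing protein rich in fibroblasts, had 1086, 1157 and 1191 in TZG against 459.6 and 604 in MPS 10 and 11, 560.2 in MPS 14 and 834 to 1581 in NC. All 3 TZG libraries were above all 3 MPS libraries for this gene (log2 fold change 1.11 ± 0.30 without MPS 14, edgeR adjusted p = 0.97), just short of the 2-fold rule. Efemp1 and Sfrp2, both secreted matrix or signalling proteins, were high in TZG 26 and 43, with Sfrp2 at 4.74, 1.93 and 9.48 in TZG against 0.856 and 1.51.

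Macrophage markers stood high in TZG 43, less so in TZG 26, and not in TZG 27. In the fit without MPS 14, 20 of 21 were higher at a median log2 fold change of 1.34, beside 52.5% of all genes, and 10 had an unadjusted p under 0.05, beside 2.76%; 0 passed in edgeR, and no member was among the 14 genes called by DESeq2. In TZG 43, 17 of the 19 assessed were past the MPS range on the higher side, in TZG 26 3, and in TZG 27 0, beside 7.8%, 0.808% and 0.36% of all genes assessed. Lyz2, lysozyme, had 90.5, 43.9 and 138 normalised CPM in TZG against 38.2 and 33.7 in MPS 10 and 11 and 70.2 to 154 in NC. Fcgr1a, the high-affinity antibody receptor, had 4.53, 1.54 and 10.5 in TZG against 1.1 and 1.2, and Csf1r, the receptor that keeps macrophages alive, 11.8, 6.01 and 53.1 against 8.2 and 11.1. Summed, the list was 328, 159 and 689 in TZG, against 176 and 163 in MPS 10 and 11, 3927 in MPS 14 and 350.0 to 645 in NC: TZG 27 lay just below MPS 10 and 11, and TZG 26 and 43 within or near the NC range. With all libraries the direction turned, with 14 of 21 lower, beside 53.8% of all genes, at a median of -0.57. The sums of T cell markers were 16.6, 5.85 and 37.3 in TZG, against 8.01 and 4.88 in MPS 10 and 11 and 633 in MPS 14. Ccl5, a chemokine for T cells and monocytes, and Vcam1, an adhesion molecule for leukocytes, were likewise high in TZG 26 and 43; Vcam1 had 20, 5.24 and 13.3 in TZG against 3.98 and 3.01 in MPS 10 and 11.

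Genes of vessels stood low in TZG 43. Of 14 endothelial markers, 11 were lower in TZG 43 alone, beside 3.31% of all genes. In that library 12 were past the MPS range on the lower side, beside 4.96% of all genes. Cdh5, the cadherin of endothelial junctions, had 306, 340.0 and 76 normalised CPM in TZG 26, 27 and 43 against 386 and 226 in MPS 10 and 11, and Robo4, a guidance receptor of endothelium, 7.25, 8.47 and 0.29 against 6.73 and 6.08. The other 2 TZG libraries lay inside or near the MPS range. Of 13 pericyte and smooth muscle markers, 4 were lower in TZG 43 alone, beside 3.31% of all genes. Among them was Acta2, smooth muscle actin, with 105, 185 and 25.3 in TZG against 136 and 136 in MPS 10 and 11. Genes of the mitochondrial genome were high in the same library: 8 of 13 were higher in TZG 43 alone, beside 5.21% of all genes. Mitochondrial transcripts took 18.7%, 25.4% and 38.6% of counts in TZG 26, 27 and 43. The shares were 25.6% and 21.4% in MPS 10 and 11 and 18.7% to 30.1% in NC. Nuclear-encoded genes of oxidative phosphorylation did not share this high level in TZG 43. Of 53 assessed, 1 was lower in TZG 43 alone and none higher, beside 3.31% and 5.21% of all genes.

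Skin genes were found in TZG 43. Krt5, Krt15, Krt14 and Krt17, keratins of the basal epidermis and hair follicle, had 47.5, 39.3, 30.2 and 10.55 normalised CPM there, and no more than 0.795 for any of them in the other TZG libraries or in MPS and NC. Krt5, Krt15 and Krt17 did not pass the filter on low counts. The 5 skin members that were tested summed to 8.04, 11.9 and 60.8 in TZG, against 13.2 and 9.99 in MPS 10 and 11, 6.25 in MPS 14 and 7.6 to 8.94 in NC, and Krt5 and Krt15 were at 0 in TZG 26, TZG 27 and all MPS libraries. The TMM factor of TZG 43 was 0.734, against 0.885 and 0.975 for TZG 26 and 27 and 0.991 and 0.914 for MPS 10 and 11. With plain CPM the median gene in TZG 43 differed from the mean of MPS 10 and 11 by -0.41 log2 units, against -0.07 with TMM, and TZG 43 alone then carried 260 higher and 799 lower genes, that is 24.6% higher in place of 61.1%. The Schwann cell, slow-twitch, lipid synthesis, collagen, fibroblast, endothelial, mitochondrial genome and skin lists kept their sign in each TZG library with plain CPM, and the macrophage list did in TZG 26 and 43 (0.72 and 1.75), while in TZG 27 it stood at 0.01 in place of -0.03. The part of skin or fat tissue and of the mitochondrial share in the differences of TZG 43 was not tested.

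TZG 26 alone carried other muscle and vessel genes. Car3, the carbonic anhydrase of slow muscle and fat, had 38.5, 2988 and 1917 normalised CPM in TZG 26, 27 and 43 against 1490.0 and 5041 in MPS 10 and 11, and Mybpc1, the slow form of myosin binding protein C, 46.4, 2018 and 1542 against 990.5 and 1562. Tbx1, a transcription factor of branchial muscle, had 1.94, 145 and 101 in TZG against 34.1 and 111. TZG 26 was low for all 3, while TZG 43, low for Myh7 and Tnnt1, lay inside or near the MPS range. Higher in TZG 26 alone were Plvap, the diaphragm protein of fenestrated endothelium, with 98.4, 32.8 and 31.1 in TZG against 33.1 and 20.8 in MPS 10 and 11, and Atp1b4, a muscle protein related to ion pump subunits, with 62.5, 15.6 and 26.1 against 23.1 and 7.34.

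A further 16 genes were lower in TZG 27 and 43 but not in TZG 26 (0.156% of genes), and 9 were higher (0.0877%). Sec62, part of the channel that moves proteins into the endoplasmic reticulum, had 52.7, 19.8 and 22.9 normalised CPM in TZG 26, 27 and 43, against 86 and 72.3 in MPS 10 and 11, 32.3 in MPS 14 and 17.6 to 20.5 in NC. It passed only when TZG 26 was left out (log2 fold change -1.92 ± 0.20, edgeR adjusted p = 0.0274). Tomm7, a subunit of the mitochondrial import pore, had 116, 46.2 and 35.1 in TZG against 119.6 and 105 in MPS 10 and 11 and 23.8 to 38.5 in NC, and Eif5b, a translation initiation factor, 109, 39.5 and 17.9 against 134 and 110.0. For all 3 genes TZG 26 lay with or nearer to MPS 10 and 11, and TZG 27 and 43 with or nearer to NC. Of the 16 lower genes, 11 had both libraries within the NC range widened by 0.5 log2 units. For 12, all NC libraries lay below MPS 10 and 11. The genes were picked for lying below these MPS libraries, and the share over all genes was not counted. These counts therefore lend no support to a likeness with NC. Of the glucocorticoid-induced list, which holds Pdk4 and Cebpd, 13 of 17 members were lower without MPS 14, beside 47.5% of all genes. The median log2 fold change was -0.43, and -0.13 with all libraries. In TZG 26, 27 and 43 the list differed from MPS 10 and 11 by -0.014, -0.805 and -0.779 log2 units. Of 15 members assessed, 2 were lower in TZG 27 and 43 but not in TZG 26, beside 0.156% of all genes. The mean log2 level of the list was 4.92, 3.98 and 4.11 in TZG. It was 5.17 and 4.39 in MPS 10 and 11 and 4.37 to 5.22 in NC. Pdk4, the kinase that shuts pyruvate out of the citric acid cycle, had 46.1, 1.85 and 1.74 in TZG against 33 and 5 in MPS 10 and 11, so MPS 10 and 11 also differed between themselves.

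Of 28 mediators and receptors of pain on the list, 18 could be tested, and of 22 inflammatory cytokines and chemokines 14. Of these 14, 11 were higher without MPS 14, beside 52.5% of all genes, at a median of 0.57. On that side 3 had an unadjusted p under 0.05, beside 2.76% of all genes. With all libraries 12 of the 14 were lower, beside 53.8% of all genes, at a median of -0.62. Tac1 (substance P), Calca and Calcb (the 2 CGRP genes) had 0 counts in all TZG and MPS libraries, and Il6 and Tnf stood at no more than 0.539 normalised CPM in TZG and at no more than 0.241 in MPS 10 and 11. Il1b, the cytokine interleukin 1 beta, had 1.44, 1 and 4.84 in TZG against 1.1 and 1.2 in MPS 10 and 11, with 15.4 in MPS 14. Of the 18 pain mediators and receptors measured, 11 were lower without MPS 14, beside 47.5% of all genes, at a median log2 fold change of -0.11. Only 1, on the higher side, had an unadjusted p under 0.05, near the 4.44% of all genes in either direction. That was P2ry6, a receptor for the nucleotide UDP, with 2.95, 1.39 and 1.65 in TZG against 0.245 and 0.361 in MPS 10 and 11 and 7.95 in MPS 14. Ramp1, the partner subunit of the CGRP receptor, had 14.3, 45.8 and 21.5 in TZG against 36.4 and 62 in MPS 10 and 11 and 5.37 to 8.51 in NC. Genes of prostaglandin and leukotriene synthesis had 14 of 15 members higher without MPS 14, beside 52.5% of all genes, with a median of 1.31, and 5 had an unadjusted p under 0.05 on that side, beside 2.76%. In TZG 26, 27 and 43 the list stood 0.102, 0.073 and 1.304 log2 units above MPS 10 and 11, so its shift was mainly that of TZG 43. With all libraries 9 of 15 were higher, beside 46.2% of all genes, at a median of 0.20. Ltc4s, which makes leukotriene C4, had 1.29, 4.54 and 7.74 in TZG, against 0.734, 0.542 and 0.0791 in the 3 MPS libraries and 5.5 to 16.7 in NC. The TZG libraries lay above the MPS libraries in each case and below or within NC; the log2 fold change was 2.80 ± 0.77 (edgeR adjusted p = 0.97 without MPS 14). Alox5ap, which hands arachidonic acid to 5-lipoxygenase, had 2.8, 4.08 and 8.22 in TZG against 1.59 and 1.26 in MPS 10 and 11, while Pla2g2a and Ptges were high in TZG 43 alone.

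**Figure D4:**
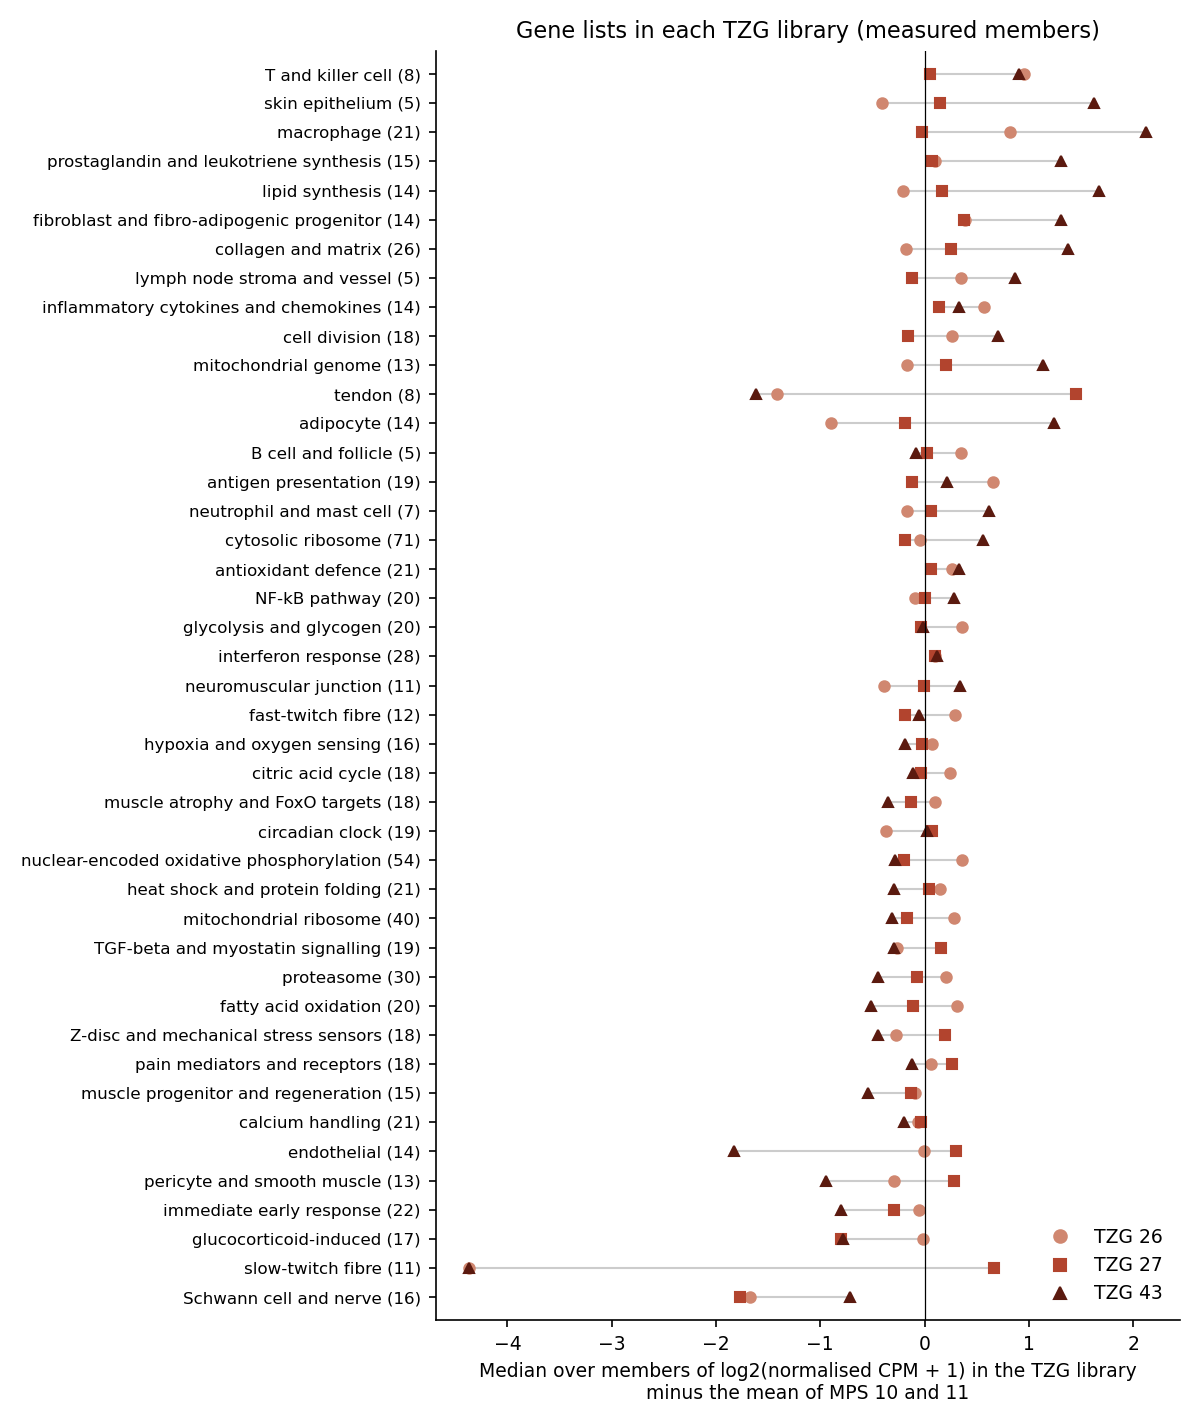
For each of the 43 gene lists (y axis, with the number of measured members), the median over members of log2(normalised CPM + 1) in TZG 26, 27 and 43 minus the mean of MPS 10 and 11 (x axis). The Schwann cell list lies below 0 in all 3 TZG libraries (-1.67, -1.77 and -0.72), the slow-twitch list in TZG 26 and 43 (both -4.36, against 0.66 in TZG 27), and the macrophage, lipid synthesis and collagen lists lie high in TZG 43.

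Across the 43 lists, 20 had a median within 0.2 log2 units of 0 in the fit without MPS 14, among them nuclear-encoded oxidative phosphorylation (-0.03), the proteasome (-0.09), the mitochondrial ribosome (-0.05), glycolysis (0.10) and the interferon response (0.07). Cytosolic ribosome genes had 55 of 71 members higher without MPS 14 at a median of 0.17, beside 52.5% of all genes. With all libraries 53 of 71 were lower, beside 53.8% of all genes, at a median of -0.24. In TZG 26, 27 and 43 the list differed from MPS 10 and 11 by -0.04, -0.18 and 0.56 log2 units, and 5 of 66 assessed were higher in TZG 43 alone, beside 5.21% of all genes. Genes of muscle atrophy split evenly, with 9 higher and 9 lower, beside 52.5% and 47.5% of all genes. Trim63, the ubiquitin ligase of wasting muscle, had 262, 154 and 98 normalised CPM in TZG against 306 and 265 in MPS 10 and 11. The circadian list had a median of -0.02, but 3 of its 19 members had an unadjusted p under 0.05, all lower, beside 1.68% of all genes: Ciart, Per1 and Dbp. With all libraries none of the 19 had, in either direction, and the median was 0.19; MPS 14 had Dbp at 14.5 normalised CPM, below every TZG library. Dbp, an output gene of the clock, had 182, 142 and 223 in TZG against 374 and 310.5 in MPS 10 and 11 and 103 to 229 in NC. Sod3, the extracellular superoxide dismutase of the antioxidant list, had 139.9, 117 and 176 in TZG against 55.2 and 88.5 in MPS 10 and 11.

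**Figure D5:**
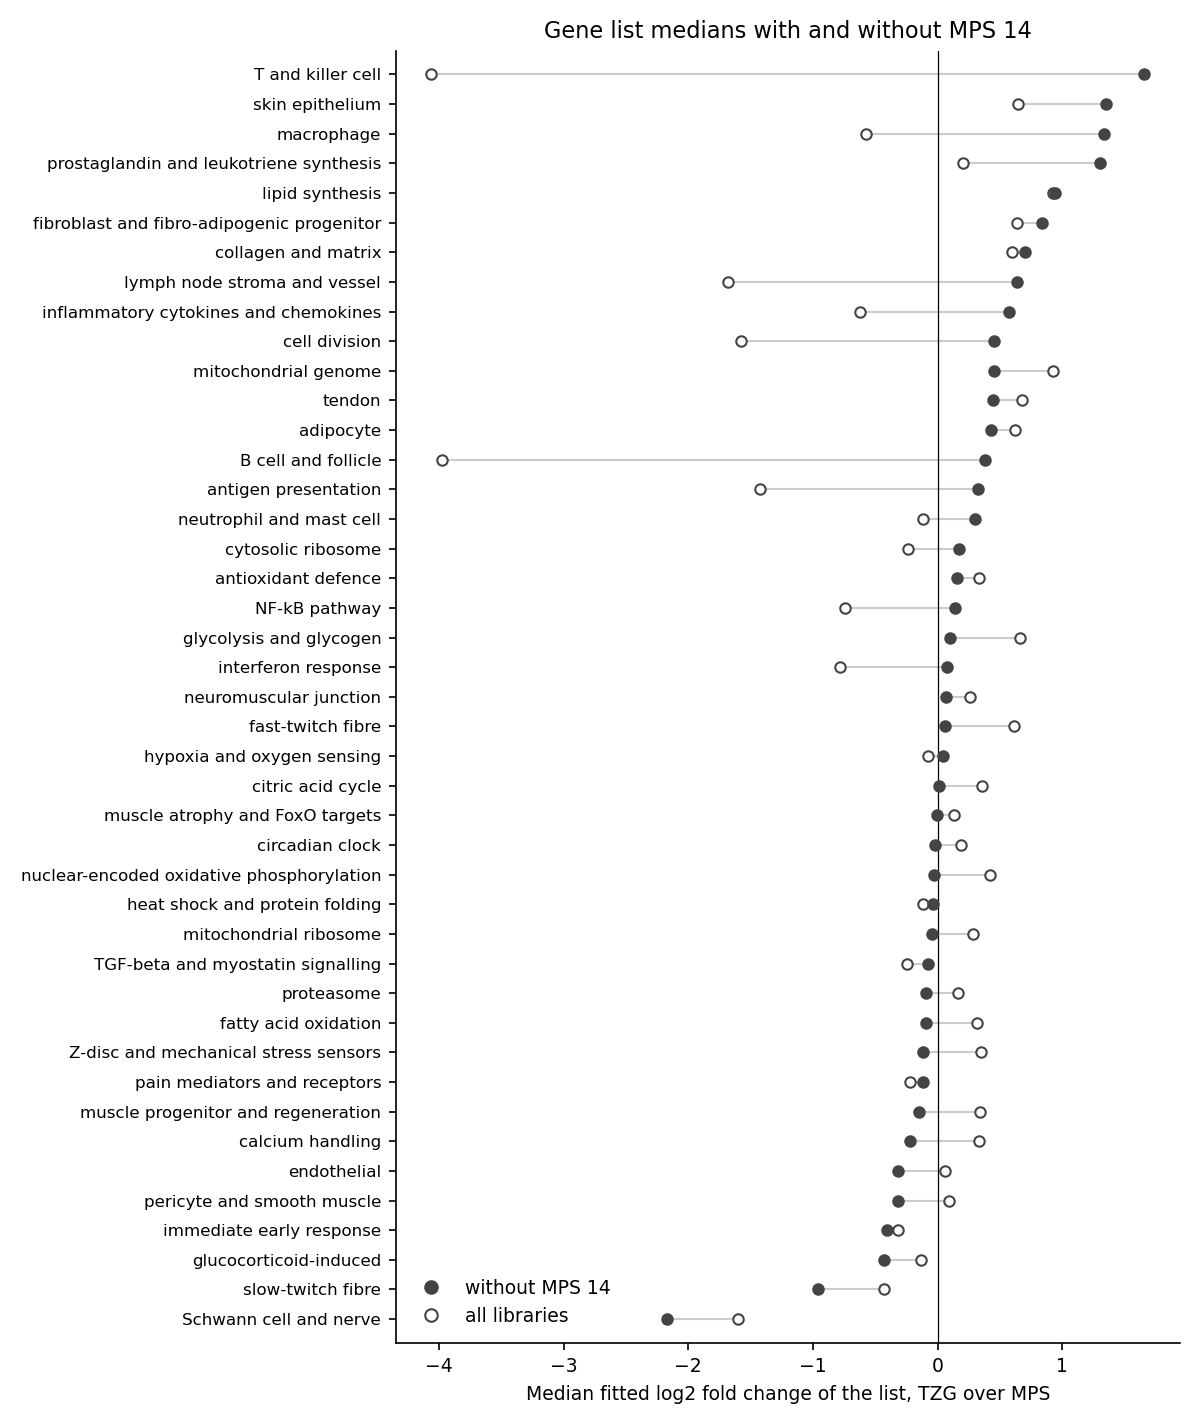
Median fitted log2 fold change, TZG over MPS, of each of the 43 gene lists (y axis), without MPS 14 (filled) and with all libraries (open). Of the 43 medians 23 have opposite signs in the 2 fits, and those of the T cell list (1.66 without MPS 14, -4.06 with it) and B cell list (0.38 and -3.97) lie farthest apart.

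Many list directions turned with MPS 14. The medians of 23 of 43 lists had opposite signs in the 2 fits, those of antigen presentation (0.32 without MPS 14 and -1.43 with it) and cell division (0.45 and -1.57) among them. Cd3g, a chain of the T cell receptor complex, had 1.08, 0.154 and 1.06 normalised CPM in TZG, against 0.122 and 0.0602 in MPS 10 and 11 and 146 in MPS 14. The Schwann cell, slow-twitch, lipid synthesis, collagen and fibroblast lists kept the sign of their median in both fits.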

How the data were processed

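Per the labels, RNeasy columns gave the RNA of rat muscle, and libraries came from a SMARTER kit for mRNA. Per the submitters' processing notes, fastp, HISAT2, StringTie 1.3.3b and edgeR 3.30.3 were used; roles, options and genome build are not given in the sources used here, nor is how reads of overlapping genes or near-identical copies were counted. The authors deposited whole-number counts per gene and library and FPKM values, per the file headers, with their own log2 fold change, p-value and q-value for TZG over MPS. The 12616160 to 18179144 counts per library give a median SE of 0.338 for a log2 fold change without MPS 14.

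Counts of 3 TZG, 3 MPS and 4 NC libraries, grouped by their titles, were fitted in R 4.3.3 with edgeR 4.0.16 (filterByExpr, TMM, 3 groups, quasi-likelihood test, two-sided, Benjamini-Hochberg adjustment over all genes, threshold 0.05), with all libraries and without MPS 14. The fits were checked on simulated counts. Normalised CPM use the TMM factors of the 9-library fit, and MPS 14 was placed on that scale by its 10-library factor times the median ratio of the others' factors. Alternatives were DESeq2 1.42.0, limma-voom (limma 3.58.1), RLE factors, plain CPM, other filters, other distances, a fit of TZG and MPS only and leaving out each library.

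The comparison, the 43 gene lists (902 entries, 867 matched to gene names) and 25 fixed genes were chosen with earlier results of these data known. Named genes are, in each direction, the 12 with the largest change among those called. Where fewer than 5 passed, the 5 with the smallest p were taken. Both came only from genes without overlap between TZG and MPS libraries, with a mean of at least 1 CPM and a proper gene name. Also named are 6 per library pattern and direction, up to 3 members with the smallest p of each list, and the fixed genes. Further members of a described pattern or list were named after their values were seen. Promoters and gene names come from RefSeq (GRCr8). Figures were drawn with matplotlib 3.10.9. Some items are not reported here.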

Additional observations from a re-analysis of the deposited data

How the results depend on the processing

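No paired analysis was possible because no 2 libraries share a title number. With all libraries, the count of genes called was 0 in edgeR under RLE factors, without mitochondrial genes, without a filter, at a mean of at least 5 CPM, in the fit of TZG and MPS alone and in limma-voom, 3 in DESeq2 and 0 to 1 when 1 library was left out. Without MPS 14 the count was 1 (Scamp1) in edgeR under RLE factors, without mitochondrial genes, under both other filters and with a required log2 change of 1 or more. It was 14 in DESeq2 (7 higher and 7 lower), 0 in limma-voom (smallest adjusted p 0.0567), 0 in the fit of TZG and MPS alone (0.284) and 0 to 2 when 1 library was left out: 0 without MPS 10 or MPS 11, 2 without TZG 26 or TZG 27. The causes were not tested.

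Genes holding in all 3 TZG libraries numbered 13, and 12, 17 and 19 with RLE factors, plain CPM and a pseudocount of 0.25. They numbered 2 against the range of MPS 10, 11 and 14, 49 at a log2 distance of 0.58 and 3 at 1.5. Under the same 3 settings those of TZG 26 alone numbered 44, 169 and 28, those of TZG 43 alone 355, 1487 and 416, and those of TZG 27 alone 87 at a distance of 0.58 and 9 at 1.5. Log2 fold changes were followed under the settings of the fits for 103 genes without MPS 14, the tested genes named in the text among them, and for 14 with all libraries. Of 1385 such values 40 changed sign, those of 25 genes without MPS 14 and of Lyz2 and Cd3g with all libraries; 18 newly passed the threshold and 4, all of Scamp1, no longer did.

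Values are given as lowest to highest when 1 library was left out. Leaving out TZG 43 reversed Acly (-0.17 to 1.53), Acta2 (-1.06 to 0.077), Adipoq (-0.089 to 1.64), Col1a1 (-0.10 to 3.04), Csf1r (-0.13 to 1.74), Fasn (-0.046 to 3.62), Gda (-0.35 to 2.49), Pla2g2a (-0.33 to 2.41), Robo4 (-0.73 to 0.28), S100b (-1.60 to 1.14) and Thrsp (-0.63 to 4.64). Leaving out TZG 27 reversed Grtp1 (-0.83 to 0.22), Nov (-0.061 to 1.54) and Rpa1 (-0.71 to 0.059) and took Cldn5 to 0 (its other values reach 10.93). Leaving out MPS 11 reversed Car3 (-1.74 to 0.11), Myom3 (-3.11 to 1.06) and Myoz2 (-5.97 to 0.22). More than 1 such fit reversed Cdh5 (-0.70 to 0.065), Dgat1 (-0.039 to 0.015), Mybpc1 (-0.68 to 0.45), Pdk4 (-3.43 to 1.72), Tbx1 (-0.50 to 1.24) and Thbs4 (-5.39 to 0.65). In limma-voom Lgals7 (-0.22), S100b (-0.71), Tbx1 (-1.05) and Thbs4 (-3.289) were reversed, and without a filter Dgat1 (-0.007). With all libraries, leaving out MPS 14 reversed Cd3g (-6.55 to 2.95) and Lyz2 (-3.99 to 1.34). Between the fits with and without MPS 14, 18 of 101 of these genes had opposite signs: Acta2, Ccl5, Cd3g, Cdh5, Csf1r, Dock8, Elovl5, Grtp1, Il18, Il1b, Lyz2, Mybpc1, Myh4, P2ry6, Pdk4, Robo4, Sfrp2 and Vcam1. A difference in a single library has no replicate, and values near 1 normalised CPM rest on few counts.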

Other observations

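Some genes were listed at 0 counts in one library and at 20 or more normalised CPM in another of the same group. Among the TZG libraries 7 such features were counted, 6 of them with a gene name: Ankrd2, Lgals7, Krt14, Myom3, Cldn5 and Myl2. This count leaves out Krt5 and Krt15, which meet the rule too but did not pass the filter on low counts. In the same count there were 0 between MPS 10 and MPS 11, and 5 among the 4 NC libraries, among them Csn1s1, Myl3 and Cldn5. Ankrd2 and Myl2 belong to slow fibres and Krt14 and Lgals7 to skin; Cldn5, the endothelial claudin, was at 0 in TZG 26 and 43 while Cdh5, another endothelial gene, stood at 306 and 76 normalised CPM there. Lgals7, a galectin of stratified epithelium, had 0, 0 and 23.3 in TZG against 0.856 and 0.0602 in MPS 10 and 11.

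Of the 535 genes higher in TZG 43 alone, 193 were also higher in all 4 NC libraries than in MPS 10 and 11, and for 109 TZG 43 lay within the NC range widened by 0.5 log2 units. Of the 340 lower genes these numbers were 105 and 95. The genes were picked against MPS 10 and 11 and then compared with NC through the same libraries. The share over all genes was not counted, so these numbers do not tell whether TZG 43 lay nearer to NC. Among the steepest of the higher genes outside the lists were Gda, guanine deaminase, with 9.12, 11.8 and 139 normalised CPM in TZG 26, 27 and 43 against 13.3 and 13 in MPS 10 and 11, and Cyp1b1, a cytochrome P450 of steroid and hydrocarbon metabolism, with 1.51, 3.93 and 26.5 against 2.51 and 2.23. Mss51, a muscle mitochondrial protein that responds to myostatin, had 142, 127 and 12.1 in TZG against 266 and 101 in MPS 10 and 11.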
